A study of Mus musculus with 16 samples.

Results

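The genes described here are 10 members of the ATF4 branch of the integrated stress response: Atf4, Atf5, Ddit3, Chac1, Trib3, Asns, Psat1, Sesn2, Ppp1r15a and Ppp1r15b. The members were chosen by name and by no measured value, though earlier results of these data were known. They are 10 of the 46983 genes in the deposited count table, and all 10 were among the 12805 genes tested, those that reached 1 CPM, their counts being scaled to a common library total, in 10 or more of the 16 libraries. The libraries came from mouse embryonic stem cells (ESCs) of the 46C line, derived from 129Ola mice and carrying GFP as a reporter of Sox1, grown on gelatin with LIF and knockout serum replacement. Cells of all groups were transfected with siRNA for 48 hr, either against RAM, the activating subunit of the mRNA cap methyltransferase RNMT, encoded by Ramac, or with a non-targeting sequence, and all were exposed to cycloheximide, which holds ribosomes on mRNA, before lysis. Sequencing covered total cytoplasmic RNA (input), which includes RNA on polysomes, and RNA of the pooled polysome fractions 17 to 22 of a sucrose gradient. This gave 4 groups of 4 libraries: input control, input RAM siRNA, polysome control and polysome RAM siRNA. The experiment used 1 cell line and no stressor, so it holds no positive control for the stress response.

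The integrated stress response starts with kinases that sense amino acid shortage, unfolded protein, double-stranded RNA or mitochondrial damage and phosphorylate the initiation factor eIF2. This lowers initiation at most mRNAs, while a small group, Atf4 among them, is translated better because reading frames in the leader upstream of the coding sequence divert fewer ribosomes. The ATF4 protein then activates genes for amino acid synthesis and transport, aminoacyl-tRNA synthetases and feedback regulators, and the PPP1R15 subunits direct a phosphatase to eIF2 to end the response. Since control of Atf4, Atf5, Ddit3 and the Ppp1r15 genes acts in part at translation, the amount of mRNA and its representation on polysomes are separate readouts. The question here was how strongly these mRNAs were represented in the pooled polysome fractions of ESCs, relative to total cytoplasmic RNA. A further question was whether RAM depletion moved their level or this ratio.

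Libraries held between 16647523 and 20147833 counts. Ramac fell from between 10.1 and 11.6 CPM in the 4 control input libraries to between 2.67 and 3.17 CPM with RAM siRNA (log2 difference -1.84, SE 0.11, adjusted p = 7.24e-06 by edgeR's quasi-likelihood test), and from between 6.61 and 14.6 to between 0.287 and 2.61 CPM on polysomes (-2.52, SE 0.55, adjusted p = 0.128, or 2.36e-05 when libraries were paired by replicate number). Libraries with the same replicate number deviated from their group means together, and the first principal component of the polysome libraries (61.5% of their variance) separated replicates 1 and 2 from replicates 3 and 4 under both siRNAs. Polysome results are therefore also given for the 2 pairs of replicates, and tests also with cultures paired by their number (a replicate block) where this changed a call. All 8 ESC markers, Pou5f1 and Nanog among them, were tested, and their summed level lay between 4624 and 4949 CPM in input control and between 3858 and 4454 CPM in input RAM siRNA. Of the 6 fibroblast, 5 primitive endoderm and 6 neural markers, 1, 3 and 5 passed the filter, with sums of at most 22.6, 13.6 and 103.6 CPM in any library. In bulk RNA, fewer cells of one type and less RNA per cell cannot be told apart.

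In control ESCs all 10 mRNAs were present, over a wide range of levels. Compared per kilobase of exon, the mean level in control input was lowest for Ddit3, which encodes the transcription factor CHOP, at 6.04 ± 1.33 RPKM (SD, n = 4 libraries). Ppp1r15a followed with 28.2 ± 1.48 RPKM and Atf5 with 43.8 ± 1.60 RPKM. Sesn2, Trib3 and Chac1 lay close together at 60.1 ± 3.67, 65.7 ± 3.78 and 70.4 ± 8.96 RPKM, and these 3 did not differ beyond their spread. Psat1 had 90.2 ± 9.38 RPKM. Atf4 (124 ± 9.50 RPKM) and Ppp1r15b (129 ± 15.3 RPKM) could not be ordered against each other, and Asns, the asparagine synthetase gene, was highest at 200.3 ± 18.7 RPKM. The constitutive eIF2 phosphatase subunit Ppp1r15b was thus more abundant per kilobase than its inducible partner Ppp1r15a in these cells. Levels per kilobase rest on the union of exons, which can exceed the length of 1 transcript. For Psat1 the union had 4254 bases and a chosen transcript 2617, for Atf4 2358 and 1725, and for Ppp1r15b both had 5594. The order of Psat1, Atf4 and Ppp1r15b thus depends on the length used.

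**Figure D1:**
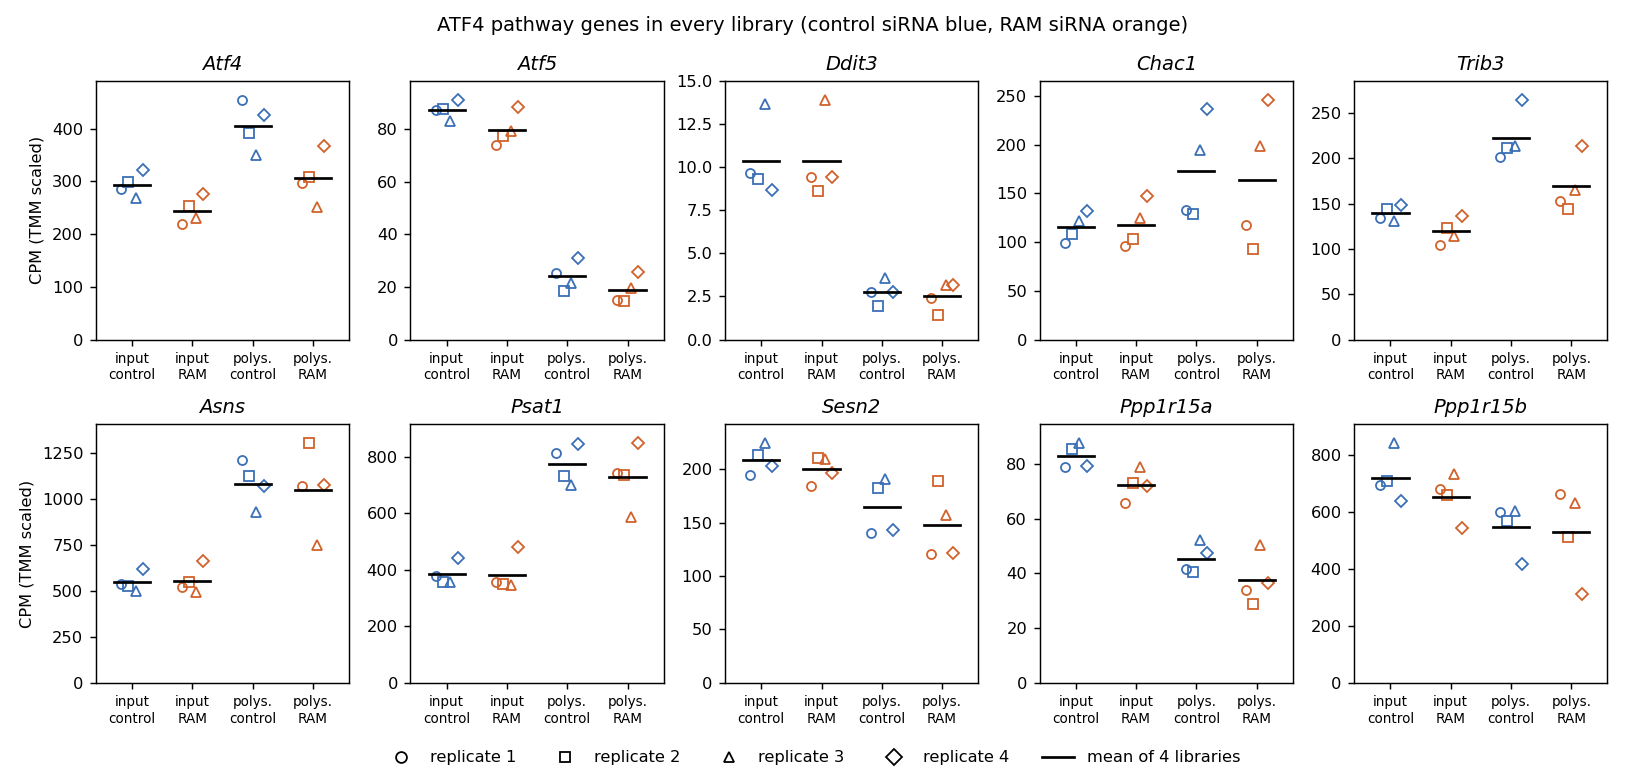
Level of each of the 10 genes in every library, as TMM-scaled CPM from 0 (y axis), for input and polysomes with control (blue) and RAM siRNA (orange). Symbols give the replicate number and bars the mean of 4 libraries. Atf5 and Ddit3 sit far lower in polysomes than in input, and Asns and Psat1 far higher, under both siRNAs.

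In control cells the members divided evenly by their polysome to input ratio. Relative to the average gene, to which the scaling sets each library, 5 members were higher in polysomes than in input (Atf4, Chac1, Trib3, Asns and Psat1) and 5 were lower (Atf5, Ddit3, Ppp1r15a, Ppp1r15b and Sesn2), each with an adjusted p under 0.05 in edgeR's quasi-likelihood test over the 12805 genes. Such calls were common: 33.1% of all genes tested were called higher and 34.3% lower, so the count of calls is not particular to these genes. For 9 of the 10 members the 4 polysome libraries and the 4 input libraries did not overlap, which was so for 61.0% of all genes. Chac1 was the exception. The median of the 10 fitted log2 ratios was 0.03, against -0.00 over all genes, with 5 positive and 5 negative values. Polysome RNA was purified with phenol, chloroform and lithium chloride and input RNA with Trizol, so a difference between fractions and a difference between purifications cannot be told apart.

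Among the transcription factors, Atf4 and its relatives Atf5 and Ddit3 were loaded in opposite ways. Atf4 (ENSMUSG00000042406, chromosome 15 of GRCm38, 80255184 to 80257541) encodes the central activator of the response. It had 286, 299, 268 and 321 CPM in control input replicates 1 to 4 and 454, 392, 350.4 and 427 CPM in control polysomes. Every polysome library lay above every input library, and the fitted log2 ratio was 0.43 (SE 0.12, adjusted p = 0.00782). Atf5 (chromosome 7, 44812256 to 44816658), a bZIP factor whose mRNA carries inhibitory upstream reading frames like that of Atf4, had 87.3, 87.7, 83.3 and 91.1 CPM in input but 25.2, 18.6, 21.5 and 31.0 CPM in polysomes. The groups were far apart, with a log2 ratio of -1.89 (SE 0.15, adjusted p = 1.75e-06). Ddit3 (chromosome 10, 127290774 to 127296288), a pro-apoptotic partner and target of ATF4, had 9.68, 9.33, 13.7 and 8.67 CPM in input and 2.76, 1.96, 3.55 and 2.79 CPM in polysomes. These polysome values rest on 37 to 63 counts per library, and the log2 ratio was -1.94 (SE 0.21, adjusted p = 1.25e-05). Exons of Atf5 share 82 bases with Il4i1 and those of Ddit3 share 68 bases with Mars, in both cases on the opposite strand. GENCODE also lists Nup62, sharing 82 bases with Atf5 on the opposite strand, and a second gene named Ddit3, sharing 105 on the same strand. Neither is among the genes of the deposited counts. The strand setting of the counting is not given in the sources used here.

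Both subunits that direct protein phosphatase to eIF2 were under-represented on polysomes. Ppp1r15a (GADD34, chromosome 7, 45522916 to 45526268), the stress-inducible subunit, had 79.0, 85.5, 87.6 and 79.4 CPM in control input and 41.5, 40.4, 52.2 and 47.5 CPM in control polysomes. Its log2 ratio was -0.90 (SE 0.12, adjusted p = 5.09e-05). Ppp1r15b (CReP, chromosome 1, 133131143 to 133139783), the subunit made without stress, had 695, 708, 841 and 639 CPM in input and 598, 569, 604 and 416 CPM in polysomes. Replicate 4 was lowest in both fractions, and the log2 ratio was smaller, -0.43 (SE 0.15, adjusted p = 0.022). This call was lost without input control replicate 3 (log2 ratio -0.35, adjusted p = 0.072). Ppp1r15b exons share 640 bases with the unclassified transcript Gm26616 on the opposite strand, to which only 357 counts were assigned over all libraries.

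Both enzymes of amino acid synthesis had the highest loading of the set. Asns (chromosome 6, 7675169 to 7693254), which makes asparagine from aspartate, had 540.2, 529.5, 501 and 620.1 CPM in control input and 1213, 1125, 929 and 1074 CPM in control polysomes, a log2 ratio of 0.95 (SE 0.13, adjusted p = 5.99e-05). Psat1 (chromosome 19, 15904678 to 15947337), the phosphoserine aminotransferase of serine synthesis, had 377, 357, 358 and 442 CPM in input and 815, 730.3, 701 and 846 CPM in polysomes, a log2 ratio of 0.98 (SE 0.13, adjusted p = 4.29e-05). Polysome and input libraries did not overlap for either gene. Their fitted ratios of 1.93 and 1.97 did not differ beyond the spread between cultures, which ran from 1.73 to 2.25 for Asns and from 1.91 to 2.16 for Psat1.

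The feedback and effector genes were divided. Trib3 (chromosome 2, 152337422 to 152344032), a pseudokinase that restrains ATF4, had 135, 144, 131 and 149 CPM in control input and 202, 212, 214 and 264 CPM in control polysomes (log2 ratio 0.64, SE 0.13, adjusted p = 0.00078). Chac1 (chromosome 2, 119351229 to 119354381), which degrades glutathione, had 99.0, 108, 122 and 132 CPM in input and 132, 128, 195 and 236 CPM in polysomes (log2 ratio 0.56, SE 0.20, adjusted p = 0.0289). Polysome replicates 1 and 2 of Chac1 lay at the upper end of the input range and replicates 3 and 4 well above it, while polysomes were higher in 4 of 4 cultures. Without input control replicate 1, input control replicate 2, polysome control replicate 3 or polysome control replicate 4 the Chac1 call was lost, with log2 ratios of 0.49, 0.53, 0.50 and 0.36 and adjusted p of 0.0817, 0.0715, 0.0574 and 0.0772. Sesn2 (chromosome 4, 132492032 to 132510501), a sensor that holds back mTORC1 when leucine is short, had 195, 214, 224 and 203 CPM in input and 141, 182, 191 and 143 CPM in polysomes (log2 ratio -0.38, SE 0.14, adjusted p = 0.0274). The Sesn2 call was also lost without single libraries, namely input control replicate 2 or 3 and polysome control replicate 1 or 4, with log2 ratios of -0.37, -0.35, -0.30 and -0.32 and adjusted p of 0.0657, 0.0705, 0.0853 and 0.0504. Trib3 kept its call without any 1 of the 8 control libraries. Over all 12805 genes, fits without 1 of these libraries called between 7877 and 8905, against 8628 with all 8.

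Promoters of these targets were searched for the amino acid response element, a composite site at which ATF4 and C/EBP factors bind, spelled TGATGNAA and sought on both strands. RefSeq windows of GRCm38.p6, 250 bases before to 50 after a start, were on hand for 9 of the 10 members. The motif was found in 3 of these 9, Chac1, Trib3 and Asns, and in 3.97% of all 32851 promoter windows. The 9 members had 11 windows, so their count is per gene while the share of all is per window. The 3 matches are shown with 10 bases on each side, the motif in capitals, because they carry the letters of the element through which ATF4 acts.
Chac1, chr2:119351039-119351066, minus strand: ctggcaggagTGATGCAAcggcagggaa
Trib3, chr2:152344029-152344056, plus strand: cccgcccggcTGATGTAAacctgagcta
Asns, chr6:7693215-7693242, minus strand: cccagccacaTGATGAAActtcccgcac
Read along the gene, the motif began 193 bases before the RefSeq start of Chac1 (119351242), 14 after that of Trib3 (152344060) and 23 before that of Asns (7693209). GENCODE puts the outermost starts, given with the genes above, at other bases, from which the motif began 180 before for Chac1, 14 before for Trib3 and 22 after for Asns. Whether the matches of Trib3 and Asns lie upstream or downstream of the start therefore differs between the annotations. A match is a description of the letters and not evidence of binding, and its absence from a window of this length says nothing about ATF4.

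**Figure D2:**
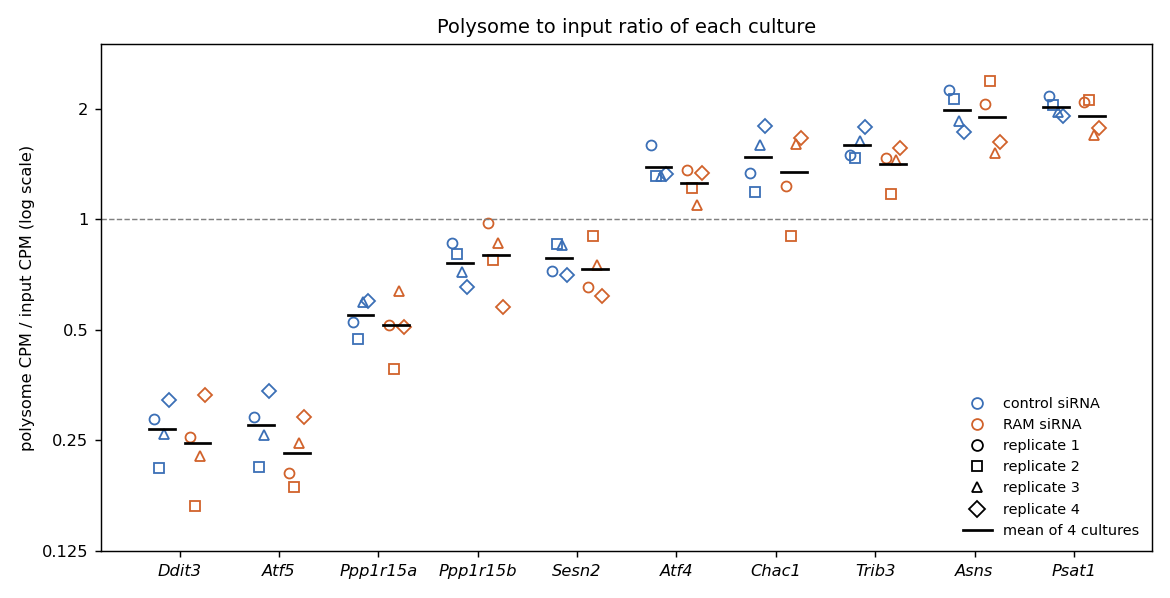
Polysome CPM divided by input CPM of the same culture (y axis, log scale; dashed line at 1) for each gene, ordered by the control mean. Points are 4 control (blue) and 4 RAM siRNA (orange) cultures and bars their means. Control means run from 0.269 for Ddit3 to 2.02 for Psat1, and the control and RAM siRNA points overlap for every gene.

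Ordered by the mean ratio of the 4 control cultures, Ddit3 (0.269 ± 0.0468, SD, n = 4) and Atf5 (0.275 ± 0.0538) came lowest and did not differ from each other beyond their spread. Ppp1r15a (0.548 ± 0.0609) stood above both without overlap. Ppp1r15b (0.759 ± 0.0922) and Sesn2 (0.783 ± 0.0814) formed the next group and overlapped each other but not Ppp1r15a. No culture of these 5 genes reached the lowest culture of the other 5. Above the gap, Atf4 (1.38 ± 0.137), Chac1 (1.48 ± 0.267), Trib3 (1.60 ± 0.141), Asns (1.99 ± 0.237) and Psat1 (2.02 ± 0.109) each overlapped the next gene in the order.

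**Figure D3:**
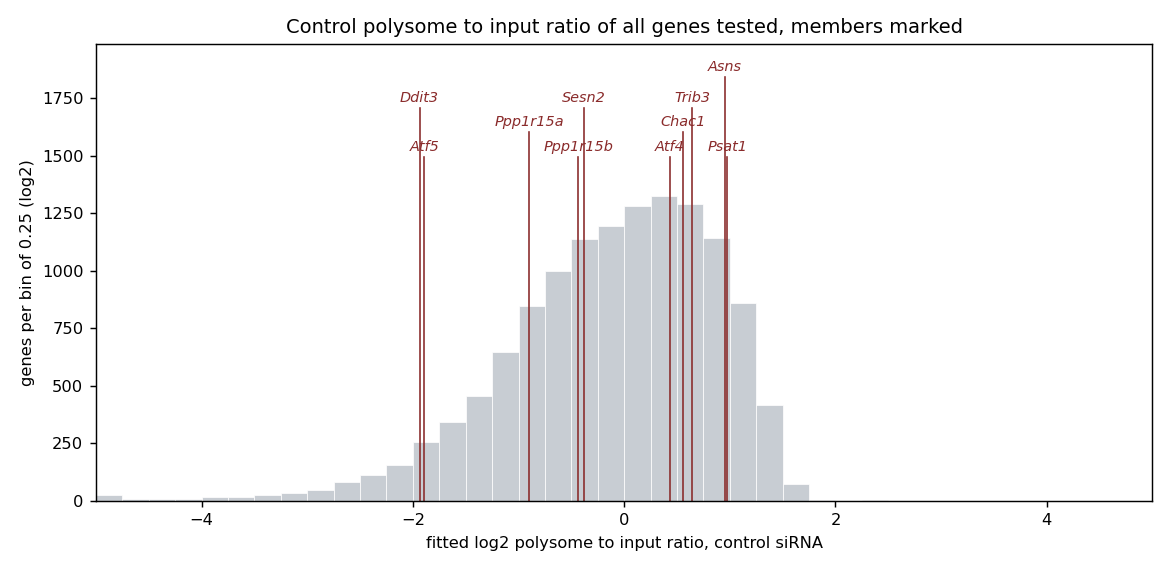
Number of genes (y axis) in bins of the fitted log2 polysome to input ratio of control siRNA cells (x axis), over all 12805 genes tested, with the 10 members marked by vertical lines. Genes below the left end of the axis are counted in its first bin. Ddit3 and Atf5 lie in the lower tail, and Asns and Psat1 to the right of the peak.

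Set against all genes, Ddit3 with a fitted ratio of 0.261 had 4.58% of genes below it, and Atf5 with 0.269 had 4.90%. Ppp1r15a stood above 19.9% of genes, Ppp1r15b above 34.2% and Sesn2 above 36.2%. The quartiles of all genes were 0.610 and 1.53, and Ppp1r15b (0.741), Sesn2 (0.769), Atf4 (1.35) and Chac1 (1.47) lay between them. Atf4 exceeded 67.5% of genes, Chac1 72.8%, Trib3 76.4%, Asns 87.7% and Psat1 88.6%. Directions were the same in both pairs of replicates for all 10 genes. With replicates 1 and 2 only, 10 members and 69.2% of all genes were called, and with replicates 3 and 4 only, 7 members and 57.6% were, since Atf4 (log2 ratio 0.40, adjusted p = 0.129), Sesn2 (-0.35, 0.198) and Ppp1r15b (-0.53, 0.117) no longer passed.

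Upstream start codons were present in the annotated leaders of members with high and with low loading. In the GENCODE transcript chosen for each gene, 8 of the 10 members had at least 1 ATG upstream of the coding sequence, against 50.0% of the 12091 genes tested that had a coding transcript. Atf4 had a leader of 594 bases with 3 upstream ATGs, Ppp1r15b one of 604 bases with 3, Ppp1r15a one of 283 bases with 3, Atf5 one of 373 bases with 2 and Sesn2 one of 348 bases with 1. The median leader of all these genes had 173 bases. An upstream frame that runs into the coding sequence, the arrangement that inhibits Atf4 in unstressed cells, was found in Atf4, Atf5 and Psat1, and in 15.6% of all genes. These 3 had log2 ratios of 0.43, -1.89 and 0.98. Chac1 and Trib3 had no upstream ATG, while Asns had 2 and Ddit3 had 2 with leaders of 169 and 186 bases. Over all genes the median control ratio went from 1.12 for the 6049 genes without an upstream ATG through 0.981 with 1, 0.931 with 2 and 0.870 with 3 to 6 down to 0.787 with 7 or more, as a description and without a test. Coding length moved with the ratio as well: its median was 0.768 below 200 codons, 1.34 from there to below 400, 1.11 from there to below 800 and 0.746 from 800 upward. Ddit3 has 168 codons and Atf5 283. The part of leaders or coding length in the members' ratios was not tested.

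In input, RAM siRNA gave small decreases of some members, whose calls depended on the fit. Control and RAM siRNA inputs of the same number deviated together (r between 0.315 and 0.639, at most 0.108 for different numbers). The replicate block takes in this pairing, and the fit without it leaves the pairing out. Without a replicate block, 0 of the 10 members passed in input by edgeR's quasi-likelihood test, against 12.9% of all genes in either direction and 5.94% called lower. An unadjusted p was under 0.05 for 3 members, against 28.0% of all genes. DESeq2 called 1 member (Atf4, adjusted p = 0.0267) and 15.4% of all genes, edgeR without the filter on low counts called 1 (Atf4, 0.0282) and 7.36%, and limma-voom called 0 and 13.0%. With the replicate block, 5 members were called lower and 0 higher, when 39.3% of all genes were called in either direction and 19.0% lower. The median log2 difference of the 10 was -0.10 both without and with the block, against 0.00 and -0.00 over all genes.

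Atf4 had 219, 252, 230.1 and 275 CPM in input RAM siRNA replicates 1 to 4, and each was below the control library of the same number. The highest RAM siRNA library, replicate 4, overlapped the control range, and the log2 difference was -0.27 (SE 0.09), or 0.831 of control, with an adjusted p of 0.0628 without the block and 5.12e-05 with it. Leaving out input siRAM replicate 4 gave -0.33 (adjusted p = 0.0126 without a block), and leaving out input control replicate 3 gave -0.31 (adjusted p = 0.0463). Of all genes, these fits called 2506 and 1658, against 1651 with every input library. Trib3, its feedback target, had 105, 123, 114 and 137 CPM, again lower in 4 of 4 pairs. The log2 difference of Trib3 was -0.23 (SE 0.09), with an adjusted p of 0.106 without the block, 0.000473 with it, and 0.0164 without input siRAM replicate 4 (log2 difference -0.29). Ppp1r15a had 65.8, 73.2, 79.0 and 72.0 CPM, lower in 4 of 4 pairs, at -0.19 (SE 0.07, adjusted p = 0.106 without and 0.00152 with the block).

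Ppp1r15b in input RAM siRNA had 681, 659, 732 and 542 CPM, lower in 4 of 4 pairs, with a log2 difference of -0.14 (SE 0.11, adjusted p = 0.44 without and 0.0148 with the block). Atf5 had 74.2, 77.5, 79.4 and 88.4 CPM, also lower in 4 of 4 pairs, at -0.13 (SE 0.07, adjusted p = 0.249 without and 0.0265 with the block). Of these 5 decreases, that of Atf4 was the largest. The count of members whose RAM siRNA libraries all lay below the control libraries was 0 in input, where 8.62% of all genes had this pattern. Ddit3 (log2 difference 0.00, 95% interval -0.38 to 0.39), Chac1 (0.03, -0.26 to 0.31), Asns (0.02, -0.20 to 0.24), Psat1 (-0.01, -0.25 to 0.24) and Sesn2 (-0.06, -0.23 to 0.10) were called neither without nor with the block. Chac1 had 95.7, 103, 124 and 148 CPM, and Ddit3 9.45, 8.64, 13.9 and 9.45 CPM, with replicate 3 of Ddit3 the highest library under both siRNAs. Asns had 523, 548, 494 and 662 CPM, Psat1 356, 348, 346 and 479 CPM, and Sesn2 185, 211, 210.0 and 197 CPM, the last lower in 4 of 4 pairs. Asns and Psat1, the members downstream of ATF4 that serve asparagine and serine synthesis, were thus not among those called lower. The intervals above come from the fit without the block, which leaves out the pairing. With the block the differences were 0.017 (SE 0.043) for Asns and -0.015 (SE 0.044) for Psat1. Small differences in either direction remain possible. In replicates 1 and 2 alone 4 members were called lower (Atf4, Trib3, Ppp1r15a and Atf5), as were 9.47% of all genes, and in replicates 3 and 4 alone 0 were, where also 0 of all genes were called.

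The ESC markers moved in the same direction as Atf4: all 8 had negative log2 differences in input RAM siRNA, 3 of 8 were called lower without the block, against 5.94% of all genes, and 7 of 8 with it, against 19.0%, and their sums did not overlap between the siRNAs. Of the 3 primitive endoderm markers tested, 1 was called higher and 0 lower in input without the block, and 1 and 1 with it. Of the 5 neural markers tested, 0 were called higher and 1 lower without the block, and 1 and 2 with it. The 1 fibroblast marker tested was called in neither fit. The part of these marker differences in the members' differences was not tested.

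**Figure D4:**
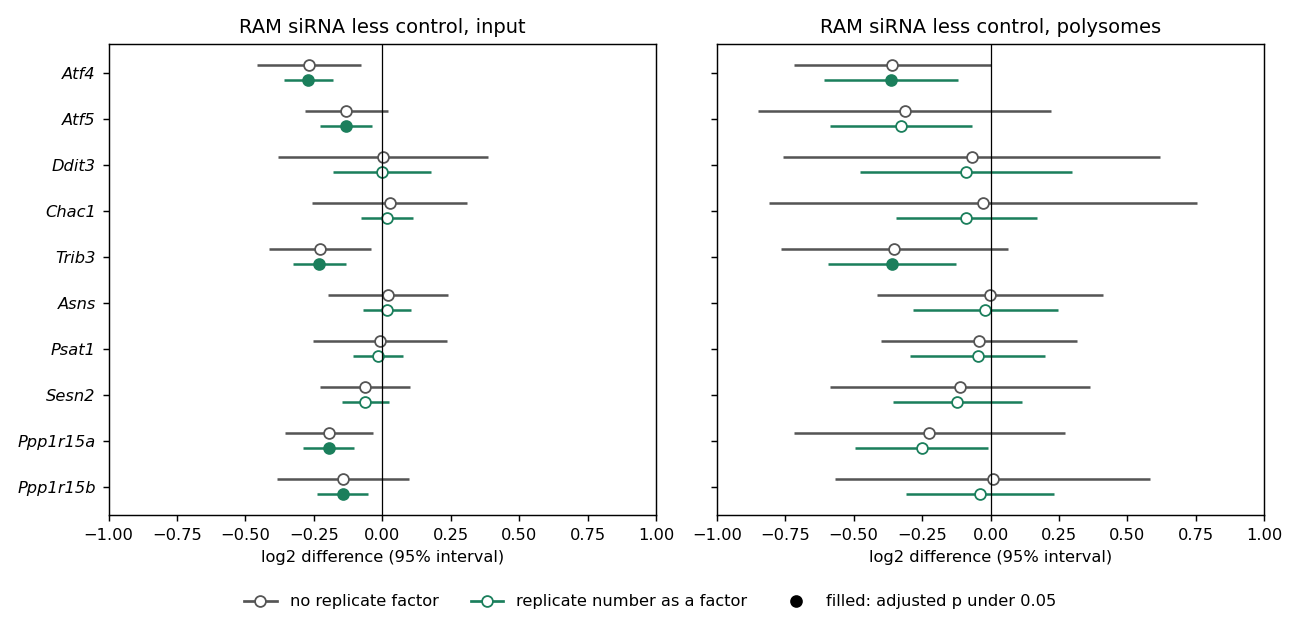
Log2 difference between RAM siRNA and control libraries with 95% intervals (x axis) for each gene, in input (left) and polysomes (right). Grey marks the test without a replicate factor and green the test with one, and filled points have an adjusted p under 0.05. With the factor, 5 genes pass in input and 2 in polysomes, and all 7 filled points are below 0.

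On polysomes Atf4, Trib3, Ppp1r15a and Atf5 again had negative differences, with wider intervals, while Ppp1r15b was at 0.01 without the block. Without the block, 0 of 10 members passed, against 0.0234% of all genes in either direction, all of which were lower (0.0234%), and an unadjusted p was under 0.05 for 0 members and 9.0% of all genes. DESeq2 and limma-voom each called 0 members, and 2.34% and 0.0234% of all genes. With the block, Atf4 and Trib3 passed as lower, 2 of 10, where 14.6% of all genes were called in either direction and 4.97% lower. Atf4 had 298, 308, 252 and 368 CPM in RAM siRNA polysomes, below control in 4 of 4 pairs, with a log2 difference of -0.36 (SE 0.16, adjusted p = 0.554 without and 0.0441 with the block). Trib3 had 153, 144, 165 and 214 CPM, below control in 4 of 4 pairs, at -0.35 (SE 0.18, adjusted p = 0.652 without and 0.0401 with the block). Replicate 4 was the highest RAM siRNA library for both, and it overlapped the control range. Members with every RAM siRNA polysome library below every control library numbered 0, against 4.38% of all genes.

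The other 8 genes were not called on polysomes in either test. Atf5 and Ppp1r15a were lower in 4 of 4 pairs, at -0.31 (SE 0.24) and -0.22 (SE 0.22). Atf5 had 15.1, 14.5, 19.5 and 25.6 CPM in RAM siRNA polysomes, and Ppp1r15a 33.9, 28.7, 50.4 and 36.7 CPM, each overlapping its control range. Asns had 1075, 1305, 749 and 1077 CPM, with the highest and the lowest outside the control range, and its log2 difference was -0.00 (95% interval -0.41 to 0.41). Psat1 was at -0.04 (-0.40 to 0.32), Sesn2 at -0.11 (-0.59 to 0.36), Ddit3 at -0.07 (-0.76 to 0.62), Chac1 at -0.03 (-0.81 to 0.75) and Ppp1r15b at 0.01 (-0.57 to 0.58). The widest intervals belonged to Chac1 and Ddit3. Psat1 had 743, 735, 585 and 847 CPM, Sesn2 121, 189, 158 and 122 CPM, Ppp1r15b 664, 511, 632 and 313 CPM and Ddit3 2.41, 1.43, 3.15 and 3.14 CPM. Replicate 4 was the lowest polysome library of Ppp1r15b under both siRNAs. Chac1 had 118 and 92.7 CPM in RAM siRNA polysome replicates 1 and 2 but 199 and 246 CPM in replicates 3 and 4, the split that the control libraries also showed. Within replicates 1 and 2 Atf4 differed by -0.45 and Trib3 by -0.44, and within replicates 3 and 4 by -0.28 and -0.29, with adjusted p between 0.7 and 0.909 in these smaller fits.

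The polysome to input ratio in RAM siRNA cells kept the order of the control cells except that Atf5 and Ddit3, and Sesn2 and Ppp1r15b, changed places within overlapping ranges. Of the 10 members, 3 were called higher in polysomes (Trib3, Asns and Psat1) and 3 lower (Atf5, Ddit3 and Ppp1r15a), where 27.3% of all genes were called higher and 25.9% lower. The log2 ratios were -2.08 (SE 0.21, adjusted p = 3.88e-05) for Atf5, -2.01 (SE 0.28, 0.000264) for Ddit3, -0.93 (SE 0.20, 0.00338) for Ppp1r15a, 0.51 (SE 0.18, 0.0368) for Trib3, 0.92 (SE 0.20, 0.00362) for Asns and 0.93 (SE 0.19, 0.00236) for Psat1. Atf4 had 0.33 (SE 0.17, adjusted p = 0.128), Chac1 0.50 (SE 0.31, 0.198), Sesn2 -0.43 (SE 0.19, 0.0786) and Ppp1r15b -0.29 (SE 0.25, 0.356). With the replicate block Sesn2 passed as well (adjusted p = 0.0445), and calls over all 12805 genes rose from 6823 to 7524. Without polysome siRAM replicate 2, Chac1 (0.67, adjusted p = 0.0196) and Sesn2 (-0.59, adjusted p = 0.00487) passed too. That fit called 8584 of all genes, so these gains came with a rise over all genes. Trib3 no longer passed without input siRAM replicate 1, 2 or 3 or polysome siRAM replicate 1, 3 or 4, with adjusted p between 0.0514 and 0.116 and log2 ratios between 0.37 and 0.57. Those fits called between 5591 and 7007 of all genes. With replicates 1 and 2 only, 5 members and 41.2% of all genes passed, and with replicates 3 and 4 only, another set of 5 and 49.9% did, Asns missing from the latter (log2 ratio 0.66, adjusted p = 0.0875), Trib3 from both (0.40, 0.166 and 0.60, 0.0748), and Chac1 present in the latter (0.71, 0.0383).

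The change of the ratio itself between RAM siRNA and control was tested as an interaction over all 16 libraries. It was called for 0 of the 10 members and for 0.0% of all genes by edgeR, with an unadjusted p under 0.05 for 0 members and 100 genes, and DESeq2 and limma-voom called 1 and 0 genes. The change was negative for 9 members, from -0.07 (Asns) to -0.24 (Atf5), and 0.10 for Ppp1r15b. The 95% intervals were -0.55 to 0.27 for Atf4, -0.76 to 0.29 for Atf5, -0.86 to 0.61 for Ddit3, -0.53 to 0.36 for Ppp1r15a, -0.51 to 0.71 for Ppp1r15b and -0.60 to 0.25 for Trib3. For the targets they were -0.56 to 0.42 for Asns, -0.53 to 0.37 for Psat1, -0.92 to 0.70 for Chac1 and -0.56 to 0.37 for Sesn2. No change of loading relative to the average gene was detected for any of the 10 genes, and each interval still held changes in both directions. A change shared by all mRNAs is removed by the scaling and cannot be seen here. The paper reports such a shared change, a lower ratio of polysomes to monosomes (free ribosomes and subunits) after RAM siRNA. It also reports changes of loading, normalized to input, for a small number of genes, where the unblocked edgeR fit here called none. With the replicate block within each fraction, 0 members and 0.0156% of all genes were called, and the Atf4 interval narrowed to -0.39 to 0.10 around -0.14. The median change of the 10 members was -0.10, against 0.00 over all genes.

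**Figure D5:**
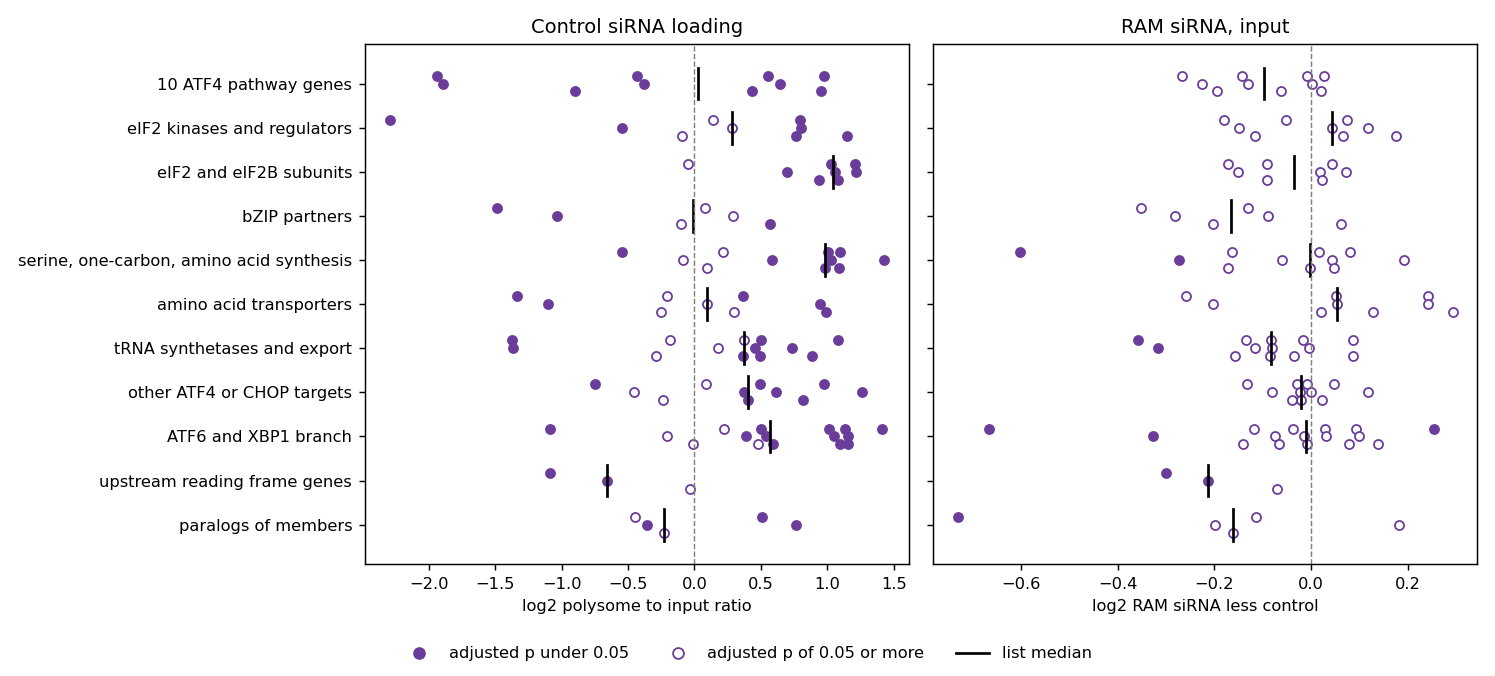
Log2 polysome to input ratio in control cells (left x axis) and log2 difference between RAM siRNA and control input (right x axis) for each tested gene of the 10 members and of 10 lists around them. Filled points passed the unblocked test (adjusted p under 0.05), and black bars are list medians. Subunits of eIF2 and eIF2B lie to the right in the left panel, and few points are filled in the right panel.

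The rest of the pathway was described with lists of its parts, all of whose genes were in the table and passed the filter. Counts in each list stand against the same shares of all genes: 33.1% called higher and 34.3% lower in control polysomes, 5.94% called lower and 12.9% in either direction in input without the block, and 19.0% and 39.3% with it. Of 9 eIF2 kinases and their regulators, 4 were higher and 2 lower in control polysomes (median log2 ratio 0.28), and 0 were called in input RAM siRNA without the block. With it, 1 was higher and 2 lower, and the gene with the smallest p was Dele1, which relays mitochondrial stress to an eIF2 kinase, at 113 ± 6.18 and 99.6 ± 10.5 CPM (log2 difference -0.18, adjusted p = 0.00315 with the block). Of the 8 subunits of eIF2 and its exchange factor eIF2B, 7 were higher in control polysomes and 0 lower, with a median of 1.04, against 33.1% of all genes called higher. In input 0 of the 8 were called without and 2, both lower, with the block, the first being Eif2s1, the subunit that is phosphorylated (-0.17, adjusted p = 0.00431 with the block).

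Of 6 bZIP factors and regulators that work with ATF4 or CHOP, 2 were lower in control polysomes and 1 higher (median -0.01). In input 0 were called without and 4, all lower, with the block, against 19.0% of all genes. Atf3, which restrains part of the response, went from 23.8 ± 2.32 CPM in control input to 18.7 ± 2.86 CPM after RAM siRNA (-0.35, SE 0.11, adjusted p = 0.0587 without and 0.000438 with the block).

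Of 11 other genes of serine, one-carbon and amino acid synthesis, 7 were higher and 1 lower in control polysomes (median 0.98). In input 2 of the 11 were called lower without the block and 0 higher. Cbs, the first enzyme of transsulfuration, fell from 16.9 ± 0.871 to 11.2 ± 2.04 CPM (-0.60, SE 0.12, adjusted p = 0.00695), and Mthfd2, a mitochondrial one-carbon enzyme, from 239 ± 14.2 to 198 ± 9.85 CPM (-0.27, SE 0.07, adjusted p = 0.0258). With the block 4 were lower and 1 higher. Of 9 amino acid transporters, 3 were higher and 2 lower in control polysomes (median 0.10). In input 0 were called without the block, and with it 4 were higher and 2 lower, Slc3a2, the heavy chain of several transporters, leading with 951 ± 64.2 against 1167 ± 117 CPM (0.29, adjusted p = 0.0584 without and 3.24e-05 with the block).

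Of 12 cytoplasmic tRNA synthetases and the tRNA exporter Xpot, 7 of 13 were higher and 2 lower in control polysomes (median 0.38), and 2 were lower in input RAM siRNA. These were Xpot, from 281 ± 12.3 to 219.5 ± 8.97 CPM (-0.36, SE 0.07, adjusted p = 0.00526), and the tryptophanyl-tRNA synthetase Wars, from 163 ± 11.9 to 131 ± 18.4 CPM (-0.32, SE 0.10, adjusted p = 0.0492). With the block 5 of the 13 were lower and 0 higher. Of 11 other ATF4 or CHOP targets, such as Gdf15, Fgf21 and Eif4ebp1, 7 were higher and 1 lower in control polysomes (median 0.41), and 0 were called in input either without or with the block. The smallest p with the block among them was that of Ddit4, an mTORC1 inhibitor, at 51.4 ± 2.56 and 55.9 ± 4.25 CPM (0.12, adjusted p = 0.099).

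The ATF6 and XBP1 branch of the unfolded protein response was set beside the ATF4 branch, since endoplasmic reticulum stress drives both. Of 16 genes, 11 were higher and 1 lower in control polysomes (median 0.57). In input RAM siRNA, 2 were lower and 1 higher without the block. Edem1, which helps to clear misfolded glycoproteins, fell from 129 ± 15.9 to 81.6 ± 8.04 CPM (-0.67, SE 0.10, adjusted p = 0.00139). Xbp1, the transcription factor of the branch, fell from 327 ± 29.7 to 261 ± 24.4 CPM (-0.33, SE 0.09, adjusted p = 0.0364), and Creld2, a protein of the endoplasmic reticulum, rose from 165 ± 4.62 to 197 ± 16.6 CPM (0.25, SE 0.08, adjusted p = 0.0492). With the block 4 were lower and 2 higher.

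The list of other mRNAs whose upstream reading frames are known to let them be translated when eIF2 is phosphorylated held 3 genes. In control cells Slc35a4 had a fitted ratio of 0.469 and Ibtk one of 0.633, both called lower in polysomes, while Ifrd1 had 0.976 and was not called. Ibtk (-0.30, SE 0.07, adjusted p = 0.0153) and Slc35a4 (-0.21, SE 0.06, adjusted p = 0.0473) were lower in input RAM siRNA. Ifrd1 was at -0.07 (adjusted p = 0.639).

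Paralogs of the members were loaded in both directions. Trib1 had a control ratio of 0.780 (called lower), against 1.56 for Trib3, and Sesn1 one of 1.42 (called higher), against 0.769 for Sesn2. Chac2 with 1.70 was called higher like Chac1, and Trib2 (0.731) and Sesn3 (0.854) were not called. In input RAM siRNA, Trib2 fell from 2.33 ± 0.311 to 1.41 ± 0.316 CPM (-0.73, SE 0.20, adjusted p = 0.0321). Trib1 (-0.16), Sesn1 (0.18), Sesn3 (-0.11) and Chac2 (-0.20) were not called without the block, and with it Trib1 (adjusted p = 0.0277) and Sesn1 (adjusted p = 0.0476) also passed.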

How the data were processed

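The genes and lists described were chosen with earlier results of these data known. RNA of 16 libraries, 4 per group, was depleted of ribosomal RNA and made into stranded total RNA libraries. Per the study's methods and the submitters' processing notes, reads were mapped to GRCm38/mm10 with STAR 2.5.1b and counted per gene with htseq-count. The annotation release and the strand setting are not given in the sources used here. The deposited table holds raw counts for 46983 genes, of which 29364 had a count, and the authors had applied no normalization to it. Libraries totalled between 16647523 and 20147833 counts, and intervals come from the fits across replicates.

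The study's filter, 1 CPM or more in 10 or more libraries, left 12805 genes. Counts were scaled by TMM and tested with edgeR 4.0.16 (quasi-likelihood, R 4.3.3), p-values were adjusted over these genes by Benjamini and Hochberg, and the threshold was 0.05. Each RAM siRNA and each polysome to input comparison used its own 8 libraries, and the change of the ratio used all 16 in an interaction term. The methods describe 4 independent occasions. Deviations of libraries with the same replicate number from their group means correlated over genes. The r was between 0.315 and 0.639 for control and RAM siRNA inputs and between 0.541 and 0.897 for polysomes. It was between 0.236 and 0.488 for control input and polysomes and between 0.294 and 0.651 for the RAM siRNA pair of fractions. For different numbers r was at most 0.108, 0.574, 0.138 and 0.203 in the same order. The numbers thus pair the samples, less clearly for polysomes, where the highest r of different numbers exceeded the lowest of the same number. All pairs of libraries within a group differed by more than sampling noise.

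Alternatives were DESeq2 1.42.0, limma-voom (limma 3.58.1), RLE scaling, library size alone, no filter, the replicate block, replicates 1 and 2 or 3 and 4 only, all 16 libraries in 1 fit and leaving out each library. RPKM here is CPM per kilobase of the union of exons in GENCODE vM21, computed here from the counts. Leaders came from 1 GENCODE vM21 transcript a gene, the best by APPRIS tag, then support level, then length. All members and the RAM gene were named. From each pathway list the genes named were up to 3 with the largest change in input among those with an adjusted p under 0.05 or, where none passed, the gene with the smallest p with the block, and all of the upstream reading frame genes and paralogs. Scripts were tested on simulated counts.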

Additional observations from a re-analysis of the deposited data

Results flagged for a closer look

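In 2 of the 40 sets of 4 libraries tested (10 genes in 4 groups), the highest library stood apart from the others by Dixon's test, and chance flags about 1 in 20. Ddit3 in input RAM siRNA replicate 3 had 13.9 CPM while the other 3 libraries had between 8.64 and 9.45 CPM, a gap of 0.846 of the whole range. Input control replicate 3 was also the highest of its group, at 13.7 CPM. Psat1 in input RAM siRNA replicate 4 had 479 CPM while the others had between 346 and 356 CPM, a gap of 0.920 of the range, and input control replicate 4 was the highest of its group at 442 CPM. Neither gene was called in input.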

How the results depend on the processing

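In control loading, 10 members were called by edgeR under RLE scaling and the replicate block and by DESeq2 and limma-voom, and no direction changed under any alternative. Of the 12805 genes, these fits called 8632, 9253, 8780 and 8690, against 8628 by edgeR with TMM and no block. Library size alone called 8586 in control loading and 6633 in RAM siRNA loading, where TMM gave 6823. Library size alone, which moved the median of all genes from -0.00 to -0.09 and from 0.04 to -0.08 in RAM siRNA loading, lost Chac1 in control cells (0.47, adjusted p = 0.0604) and, in RAM siRNA loading, lost Trib3 (0.40, 0.115) and gained Sesn2 (-0.56, 0.0225). With all 16 libraries in 1 fit 7 members passed in control cells, without Chac1 (adjusted p = 0.0713), Sesn2 (0.0618) and Ppp1r15b (0.101). In that fit 7899 of the 12805 genes passed. No filter lost Sesn2 (-0.24, 0.224) and Ppp1r15b (-0.29, 0.139) in control cells, where 12094 of 27306 genes passed. Members called lower in input numbered 0 by edgeR, 1 without a filter, 1 by DESeq2, 5 with the replicate block and 4 with replicates 1 and 2 only, and between 0 and 2 without single libraries. Of all genes, 1651 were called in input, 5028 with the block, 2629 with replicates 1 and 2 only, 0 with replicates 3 and 4 only, 186 with all 16 libraries in 1 fit and between 913 and 2506 without single libraries. The count moved by over 1.5 times without input control replicate 1 (928) or 2 (1011), input siRAM replicate 1 (913), 2 (1068) or 4 (2506). On polysomes 3 genes were called, 39 without a filter, 300 by DESeq2, 1875 with the block (2 of them members), 0 with either pair of replicates, 453 with all 16 libraries and between 0 and 48 without single libraries, with 48 only without polysome siRAM replicate 2, 1 without polysome control or siRAM replicate 4, and 0 otherwise. For the loading change, 0 genes were called by edgeR, 1 by DESeq2 and 2 with the replicate block within each fraction. The block changed no other call of a member than those given above for input, polysomes and Sesn2 in RAM siRNA loading. The cause of these shifts was not tested, except that the smaller fits hold fewer libraries.

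Signs changed only for members that were not called and lay near 0. In input these were Ddit3 (library size alone -0.018, no filter -0.023, DESeq2 -0.0008, replicate block -0.0015, replicates 1 and 2 only -0.071), Asns (library size alone -0.0001, no filter -0.0051), Chac1 (replicates 1 and 2 only -0.060) and Psat1 (replicates 3 and 4 only 0.040). Without single libraries input differences ran from -0.18 to 0.17 for Ddit3, -0.096 to 0.11 for Chac1, -0.070 to 0.084 for Asns and -0.13 to 0.066 for Psat1. On polysomes Ppp1r15b turned to -0.012 with RLE scaling, -0.059 with library size alone, -0.050 without a filter, -0.012 by DESeq2, -0.040 by limma-voom, -0.039 with the replicate block, -0.044 with replicates 3 and 4 only and -0.045 with all 16 libraries. Asns turned to 0.059 with replicates 1 and 2 only, and Ddit3 to 0.043 and Chac1 to 0.096 with replicates 3 and 4 only. Without single libraries polysome differences ran from -0.23 to 0.14 for Ddit3, -0.30 to 0.18 for Chac1, -0.11 to 0.11 for Asns, -0.14 to 0.025 for Psat1 and -0.14 to 0.17 for Ppp1r15b. The loading change turned to 0.0004 for Asns without a filter and, with replicates 1 and 2 only, to 0.081 for Asns, 0.052 for Psat1 and 0.043 for Sesn2. Without single libraries it ran from -0.29 to 0.10 for Ddit3, -0.37 to 0.086 for Chac1, -0.19 to 0.081 for Asns, -0.16 to 0.10 for Psat1, -0.26 to 0.022 for Ppp1r15a and -0.032 to 0.28 for Ppp1r15b. Depth limits Ddit3 most, whose polysome libraries held between 25 and 63 counts.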
